A study of Mus musculus with 2 samples.

Results

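Mir451a and Mir144 are microRNA genes of the red blood cell lineage, and they are described here in mouse calf muscle. They serve as a measure of blood in the tissue, although whether their reads came from blood was not tested. They were found by name, as the rows of both count files whose Ensembl gene identifiers are called Mir451a or Mir144 in the GENCODE mouse M21 annotation, which gave 2 of 2202 microRNA genes. Small RNA was taken from the gastrocnemius, a calf muscle, of B6CASTF1/J females aged 2 months, which are F1 hybrids of the C57BL/6J and CAST/EiJ strains. There is 1 group, with no treatment or other genotype, and its 2 libraries are labelled as biological replicates 2 and 1. The females carry different numbers in the labels but a shared donor code. Whether the libraries come from different animals therefore cannot be settled from the labels, and the spread between them may be technical. The exact binomial and Fisher p-values below cover counting error alone and measure no spread between animals.

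The cluster is transcribed as a single primary transcript under the erythroid transcription factor GATA1, and both microRNAs accumulate as red cell precursors mature. Mature mouse red cells have no nucleus but keep microRNAs, of which miR-451a is among the most abundant, so whole blood left in a tissue carries it. Most microRNAs are cut from their hairpin by Dicer, but miR-451a is not. Its hairpin is too short for Dicer and is cut by the Argonaute protein AGO2, then trimmed. miR-144-3p is a regulator of NRF2, a transcription factor of the oxidative stress response, and miR-451a protects red cells from oxidative stress through the adaptor protein 14-3-3 zeta.

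The sequences are shown because the members differ in how the mature RNA sits in its hairpin and because the strand of the hairpin decides how its reads were counted. Both hairpins were matched by symbol in RefSeq (GRCm38.p6), and their positions equal those of the annotation used for the counts. In the hairpins below, 5′ to 3′, capitals mark the mature forms.
Mir144 hairpin: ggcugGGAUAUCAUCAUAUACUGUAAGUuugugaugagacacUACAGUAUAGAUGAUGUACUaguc
Mir451a hairpin: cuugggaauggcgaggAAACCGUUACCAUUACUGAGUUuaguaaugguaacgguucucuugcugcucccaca
Mir451b hairpin: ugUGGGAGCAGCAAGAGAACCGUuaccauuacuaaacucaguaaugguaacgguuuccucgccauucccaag
In the mature forms, capitals mark the seed, bases 2 to 8 from the 5′ end, which chooses the target messenger RNAs.
miR-451a: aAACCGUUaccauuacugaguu
miR-144-5p: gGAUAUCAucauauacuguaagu
miR-144-3p: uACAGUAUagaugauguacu
miR-451b: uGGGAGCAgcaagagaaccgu

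In mm10, Mir144 (ENSMUSG00000065401.1) lies on the plus strand of chromosome 11, from 78073005 to 78073070. Mir451a (ENSMUSG00000070065.1) follows on the same strand from 78073170 to 78073241, with 99 bases between them. No annotated gene on the plus strand contains either of them, and the nearest downstream gene, Eral1, lies on the minus strand and ends 134 bases past Mir451a. Mir451b (ENSMUSG00000104813.1) has the same start and end as Mir451a on the minus strand, and its hairpin is the exact reverse complement of that of Mir451a. No other microRNA gene was annotated within 10000 bp.

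**Figure D1:**
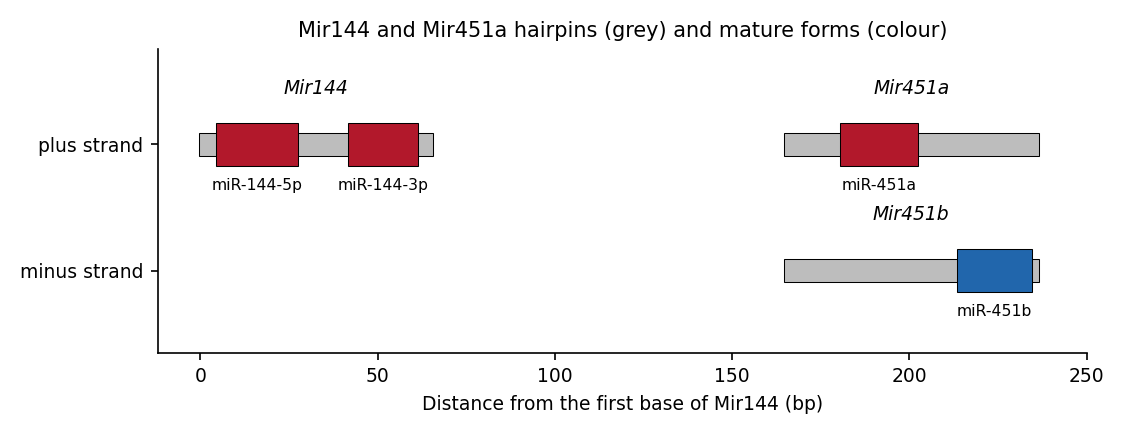
Map of the cluster, with distance in bp from the first base of Mir144 on the horizontal axis and the strands as rows. Grey bars are the hairpins and coloured bars the mature forms; Mir451a and Mir451b cover the same bases on opposite strands, while miR-451a and miR-451b do not overlap.

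RefSeq lists 2 mature forms for Mir144 and 1 for Mir451a. The mature miR-451a, of 22 nt, runs from base 17 to base 38 of its 72 nt hairpin. In the minimum free energy fold predicted by RNAfold, that hairpin has 30 base pairs, 17 of them in its longest unbroken helix, and a loop of 4 nt that belongs wholly to the mature form. The 66 nt Mir144 hairpin was predicted with 27 base pairs, a longest helix of 9 and a loop of 6 nt that neither miR-144-5p nor miR-144-3p enters. The predicted fold energies were −43.3 kcal/mol for Mir451a and −28.6 kcal/mol for Mir144.

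The helix of Mir451a makes much of its mature sequence readable on both strands of the locus. Bases 2 to 17 of miR-451a, a run of 16 nt, also occur on the opposite strand of its own hairpin, against a longest such run of 9 nt for miR-144-5p and for miR-144-3p. In the hairpins of other microRNA genes, the longest run shared with miR-451a was 10 nt. A full-length miR-451a read is thus found at a single place among these hairpins, while a fragment within those 16 bases is found on both strands. Multimapping reads enter no gene count, and how many of them came from miR-451a was not tested.

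No other mature mouse microRNA in the table had the seed of miR-451a, miR-144-5p or miR-144-3p at bases 2 to 8. At bases 2 to 7, miR-144-3p shared its seed with miR-101a-3p, shown here with bases 2 to 8 in capitals for comparison with the sequence above.
miR-101a-3p: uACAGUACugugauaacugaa
Its gene Mir101a had 1146 counts (500.0 CPM) in replicate 2 and 822 counts (421 CPM) in replicate 1. Mir101a thus stood above Mir144 in both libraries.

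Counts of reads on the gene's own strand were the values used, scaled to CPM, the usual library-size scaling, over all own-strand microRNA gene counts. These totalled 2291821 in replicate 2 and 1950204 in replicate 1, or 15.9% and 20.7% of all reads listed in the files. A single count was worth 0.436 CPM in replicate 2 and 0.513 CPM in replicate 1, and the limit that a count of 0 allows, 3 counts, was 1.31 and 1.54 CPM. Genes with at least 10 counts in both libraries were called detected, which held for both members and for 278 genes in all. Of the 9 listed striated muscle microRNAs that mark the labelled tissue, 8 were detected. Mir206 averaged 34321 ± 10766 CPM, Mir499 1406 ± 1542 CPM and Mir208b 442 ± 452 CPM (SD, n = 2 each). The other 5 detected ones had lower means, the highest of them Mir1a-2 at 212 ± 50 CPM. Some of these genes, such as Mir1a-2, have another copy, and a read that maps to both copies enters no gene count. Their levels here can therefore be too low, by an amount that was not tested.

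Mir451a, the more abundant member, had 863 counts in replicate 2 and 1331 in replicate 1. Its level was 377 CPM in replicate 2 (352 to 403, the exact Clopper-Pearson interval at 95%) and 682 CPM in replicate 1 (646 to 720.2), and the mean was 530 ± 216 CPM (SD, n = 2). The intervals do not overlap. Here and below, intervals come from read counts and reflect counting error alone. Reads copied by PCR are not separate molecules, so the intervals may be too narrow even for that. Mir451a ranked 92nd among all genes in replicate 2 and 67th in replicate 1.

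Mir144 had 191 counts in replicate 2 and 204 in replicate 1. It stood at 83.3 CPM in replicate 2 (71.9 to 96.0) and 105 CPM in replicate 1 (90.7 to 120.0), and the intervals overlap. The mean was 94.0 ± 15.0 CPM (SD, n = 2). It ranked 152nd and 150th, so its place barely differed between the libraries. By mean CPM, 75 detected genes stood above Mir451a and 150 above Mir144, and the median of detected genes was 123 CPM. Mir451a thus lay in the upper part of the detected genes and Mir144 just below their middle. Mir143, the most abundant gene, was 274 times as high as Mir451a and 1546 times as high as Mir144. Each deposited count covers a whole gene, so the reads of miR-144-5p and miR-144-3p are not separated.

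**Figure D2:**
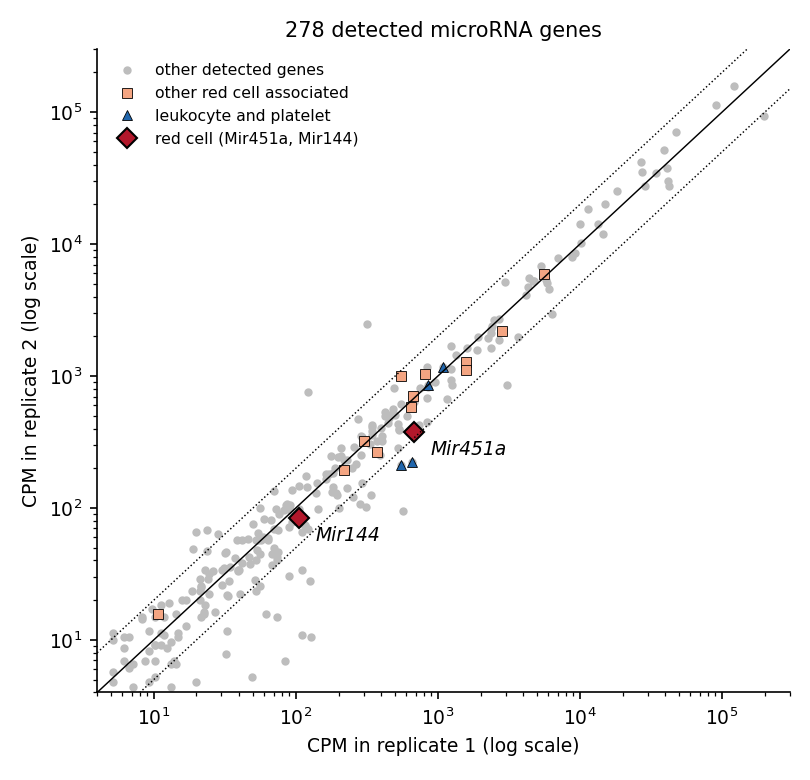
CPM of the 278 detected genes in replicate 2 (vertical, log scale) against replicate 1 (horizontal, log scale), each point a gene, with the line of equality and dotted lines at 2-fold. The red cell genes are dark diamonds; Mir451a lies below equality and inside the 2-fold line, at 377 CPM in replicate 2 and 682 CPM in replicate 1, and Mir144 lies near equality.

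The members' joint share of counts was 0.0460% in replicate 2, with an interval of 0.0433 to 0.0489, against 0.0787% in replicate 1, with an interval of 0.0748 to 0.0827. The mean share was 0.0623% ± 0.0231 (SD, n = 2). In a bulk sample, fewer red cells and less of these RNAs per cell cannot be told apart. The share was then set beside genes of organs that the muscle does not contain. The 4 pancreas genes summed to 10 counts in replicate 2 and to 19 in replicate 1. The 9 genes of pluripotent cells found in the files had 14 and 8. None of those 13 genes was detected. The 4 liver genes summed to 306 counts in replicate 2 and 376 in replicate 1, fewer than the 1054 and 1535 of the red cell genes. Among them Mir122, which marks hepatocytes, had 25 counts in replicate 2 against 215 in replicate 1, where it stood above the 204 counts of Mir144. Mir122 was called lower in replicate 2, at a log2 ratio of −3.28, while Mir192 and Mir194-2 had ratios of 0.63 and 0.55. Mir451a stood above Mir122 in both libraries.

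The members gave the same result in the own-strand and opposite-strand columns and differed in the either-strand column. All 863 and 1331 reads of Mir451a lay on its own strand and 0 on the other, which allows an opposite-strand share of up to 0.348% in replicate 2 and 0.225% in replicate 1 when set against its own-strand reads. In the column for reads of either strand, Mir451a was listed at 0 in both libraries. Mir451b had 0 own-strand reads in both, and its opposite-strand column held the same 863 and 1331 reads. A read at this locus fits both genes when strand is ignored, and the files list such reads as ambiguous, so the either-strand column shows no red cell signal from Mir451a. Mir144 has no partner on the other strand, and its either-strand counts, 191 and 204, equalled its own-strand counts, with 0 reads opposite. Of the 278 detected genes, 23 were listed at 0 in the either-strand column of both libraries.

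**Figure D3:**
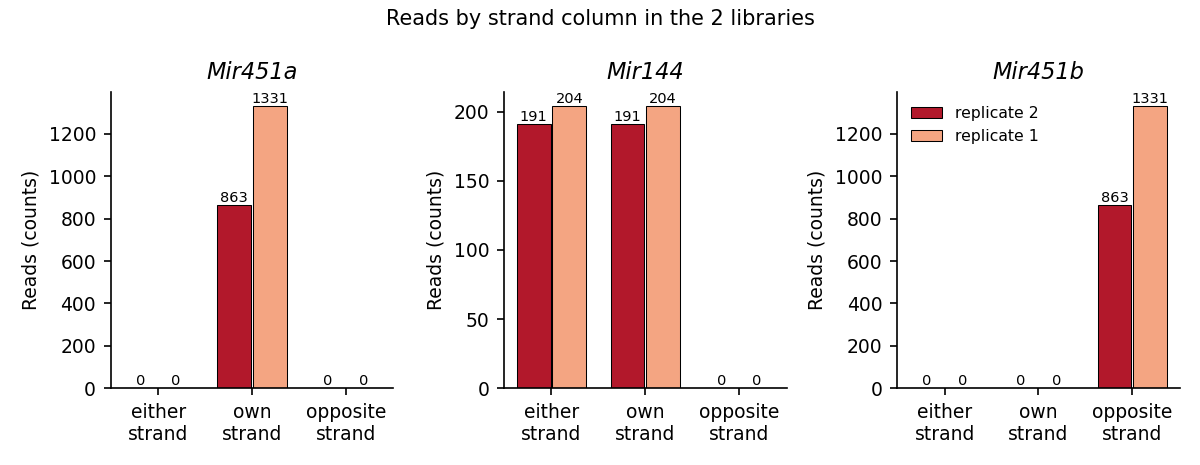
Reads listed for Mir451a, Mir144 and Mir451b (panels, each with its own count axis) in the columns for either, own and opposite strand, with replicate 2 in dark red left of replicate 1 in light red. Mir451a has reads in its own-strand column alone, Mir451b in its opposite-strand column alone, and Mir144 has equal either-strand and own-strand counts.

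Mir451a exceeded Mir144 in each library, although both come from 1 transcript. There were 4.52 Mir451a reads for each Mir144 read in replicate 2 (3.86 to 5.31) and 6.52 in replicate 1 (5.63 to 7.60). Per nucleotide of hairpin the ratios were 4.14 and 5.98, but a small RNA read spans a whole mature form, so length has less bearing than in longer RNA. The lowest level of Mir451a, 377 CPM, lay above the highest of Mir144, 105 CPM. The ratio itself differed between the libraries, being 0.693 times as high in replicate 2 as in replicate 1 (0.555 to 0.864, two-sided Fisher's exact test, p = 0.000843). This test covers counting error and compares these libraries, not conditions.

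Both members were lower in replicate 2 than in replicate 1, Mir451a by more. After TMM scaling, the log2 ratio of Mir451a was −0.82 (SE 0.063, counting error, 95% exact interval −0.95 to −0.70), which is 1.77-fold lower in replicate 2. That of Mir144 was −0.29 (SE 0.145, interval −0.59 to −0.0015). A call required an adjusted p under 0.05 and at least a 2-fold difference, in a two-sided exact binomial test, with p-values adjusted over all 278 detected genes by the Benjamini-Hochberg method. That test called 33 genes (11.9%), 26 of them lower in replicate 2 (9.35%), and 0 of the 2 members. Before adjustment, the exact binomial p was under 0.05 for 2 of 2 members and for 163 of all 278 genes (58.6%), so the members' count says little about them. Without the fold minimum, 154 genes passed (55.4%), 85 of them lower in replicate 2 (30.6%), and so did Mir451a (adjusted exact binomial p = 4.578e-39), while Mir144 did not (adjusted exact binomial p = 0.076).

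Of the 278 detected genes, 53 had a log2 ratio farther from 0 than Mir451a, in either direction, and 157 one farther than Mir144. A lower ratio than that of Mir451a was found for 38 genes and a lower one than that of Mir144 for 86, and the median of all was −0.03. The coefficient of variation between the libraries was 40.9% for Mir451a and 16.0% for Mir144, against a median of 16.7% over detected genes. Whether either difference exceeds the spread between replicates cannot be tested with a single library on each side. The edgeR exact test gave Mir451a an adjusted p of 0.332 at an assumed biological coefficient of variation of 0.2 and an adjusted p of 1 at 0.352, a value estimated from the same 2 libraries and so no independent measure of the spread. The matching adjusted p values for Mir144 were 0.919 and 1.

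**Figure D4:**
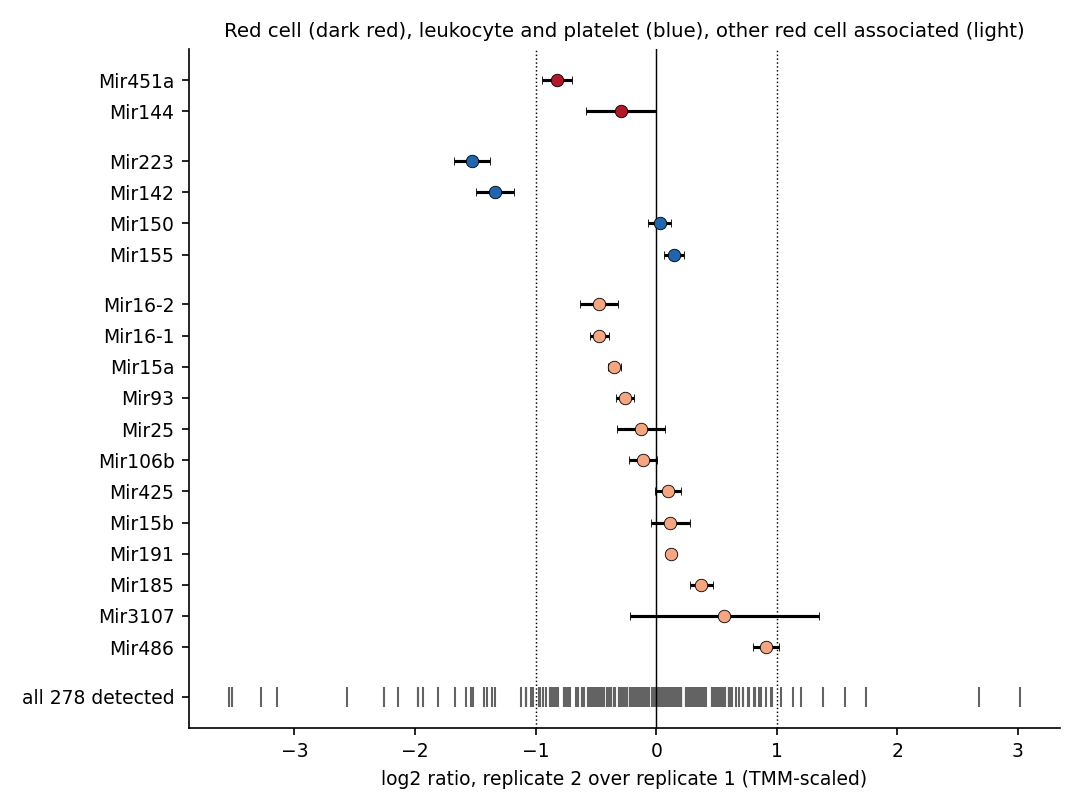
Log2 ratios of replicate 2 over replicate 1, TMM-scaled, for the red cell genes (dark red), the leukocyte and platelet genes (blue) and other red cell associated genes (light), with bars of 2 SE of counting error; ticks in the lowest row are all 278 detected genes and dotted lines mark 2-fold. Mir451a and Mir144 lie below 0 and inside the 2-fold lines, and Mir223 and Mir142 lie beyond them.

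Genes of other blood cells were set beside the red cell genes, since blood left in the muscle carries all of them. Whether their reads came from blood or from cells within the muscle itself was not tested. Of the 7 listed genes of leukocytes and platelets, 6 were found by symbol and 4 detected. Of these 4, 2 were called lower in replicate 2, against 9.35% of all detected genes, and 0 higher. The remaining gene, Mir146a, is in the files as Mir146 and was left out of the list results. Mir146 had 650 counts in replicate 2 and 1024 in replicate 1, a log2 ratio of −0.85, and was not called. Without the fold minimum it passed, in the direction of Mir451a. Mir223, a microRNA of myeloid cells and platelets, had 510 counts in replicate 2 against 1284 in replicate 1, a log2 ratio of −1.53. Mir142, a microRNA of blood-forming cells, named here after its values were seen, had 489 and 1075 counts, a log2 ratio of −1.33. Mir155 and Mir150, microRNAs of lymphocytes, had log2 ratios of 0.14 and 0.03. Without the fold minimum, Mir155 also passed, in the direction opposite to Mir451a (adjusted exact binomial p = 0.00127), and Mir150 did not pass (adjusted exact binomial p = 0.599). The edgeR exact test called 2 of these 4 genes at the assumed coefficient of variation of 0.2, with adjusted p of 0.00657 for Mir223 and 0.0221 for Mir142, and 0 at the estimated one. An unadjusted exact binomial p under 0.05 was found for 3 of the 4, against 58.6% of all detected genes.

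Other microRNAs known to be abundant in red cells or their precursors showed no common direction. Most of them are also made by many other cells, so they are not specific to blood. Of 16 listed, 13 were found by symbol and 12 were tested, and 0 were called, against 11.9% of all detected genes. Mir92a-1 and Mir92a-2 were left out of these, though the files hold them as Mir92-1 and Mir92-2. Their log2 ratios were −0.18 and −0.48, both below 0, and neither was called. Of the 12, 6 had ratios above 0 and 6 below, with a median of −0.0047 against −0.03 over all detected genes, and 7 had an unadjusted exact binomial p under 0.05, against 58.6% of all detected genes. The edgeR exact test also called 0. The most abundant were Mir191 at 5777 ± 247 CPM, Mir15a at 2514 ± 467 CPM and Mir93 at 1427 ± 207 CPM (SD, n = 2 each), with log2 ratios of 0.12, −0.35 and −0.26. Mir486, known from both red cells and striated muscle and named here after its values were seen, had 2306 counts in replicate 2 and 1070 in replicate 1. Its log2 ratio of 0.91 ran opposite to that of Mir451a. Mir16-1 and Mir16-2, also named after their values were seen, had log2 ratios of −0.47 and −0.48, in the direction of Mir451a.

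The red cell genes were also set against the counts of other lists. For every 1000 leukocyte and platelet counts, which leave out Mir146, there were 187 red cell counts in replicate 2 and 249.6 in replicate 1. Against 1000 counts of the endothelial Mir126a and Mir126b there were 2.93 and 6.51, and against 1000 of striated muscle 10.1 and 28.7. Against 1000 counts of smooth muscle, however, there were 4.72 in replicate 2 and 3.89 in replicate 1, so that here the ratio was higher in replicate 2, by 1.22 times. The other lists also differed between the libraries. The smooth muscle genes took 9.73% of counts in replicate 2 and 20.3% in replicate 1, the endothelial genes 15.7% and 12.1%, and the striated muscle genes 4.56% and 2.74%. All 8 tested striated muscle genes had ratios above 0, and Mir499 and Mir208b were called higher in replicate 2, at log2 ratios of 3.02 and 2.67. The counts of these lists leave out multimapping reads, such as those shared between gene copies of striated muscle microRNAs. The part of these lists in the red cell ratios was not tested. Of all reads listed, which include those in no gene, the red cell genes made up 0.00733% and 0.0163%. Multimapping reads made up 72.3% of those in replicate 2 and 70.1% in replicate 1, and their part in the difference was not tested.

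The genes closest in level to each member were found by distance in log2(CPM + 1) over both libraries, which with 2 libraries says only that counts were alike. For Mir451a these were Mir30b, Mir152 and Mir324, at distances of 0.22, 0.35 and 0.37. Mir30b had 984 counts in replicate 2 and 1432 in replicate 1. For Mir144 they were Mir224, Mir431 and Mir493, at distances of 0.18, 0.22 and 0.23, and Mir224 had 178 and 184 counts. Mir144 was not among the 3 nearest genes of Mir451a, nor Mir451a among those of Mir144.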

How the data were processed

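The deposited values are raw counts of small RNA reads per microRNA gene, in columns for reads of either strand, of the gene's own strand and of the opposite strand. The authors counted reads against GENCODE mouse M21 on mm10, per the deposited notes. Which aligner and counter they ran is not given in the sources used here. Labels give an insert size under 30 nt. Rows that name no gene, 84.1% of reads listed in replicate 2 and 79.3% in replicate 1, entered neither library sizes nor tests.

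All 2202 identifiers matched the annotation. Libraries were compared by a two-sided exact binomial test, conditional on the summed count and TMM-scaled sizes (edgeR 4.0.16), with a prior of 0.5 counts for log2 ratios, and Benjamini-Hochberg adjustment. The test was checked on simulated counts that vary by counting error alone, so the check says nothing about spread between replicates. There is no second group, so no quasi-likelihood test was run. Alternatives changed the strand, denominator, scaling, count minimum, fold minimum and spread. Members and lists were chosen with earlier results of these data known. Named genes are the members, annotated microRNA genes within 10000 bp, the 3 nearest in level, the 3 most abundant detected genes of a list, and the most abundant gene. Mir142, Mir486, Mir16-1, Mir16-2, Mir101a, Mir126b, Mir1a-2, Mir146, Mir92-1 and Mir92-2 fall outside that rule and were named after the values were seen. Of the listed names, Mir486b, Mir92a-1, Mir92a-2, Mir146a and Mir292a were not found by symbol and are in no list result. Of these, Mir146a, Mir92a-1 and Mir92a-2 are in the files under the symbols Mir146, Mir92-1 and Mir92-2. Software was R 4.3.3 with DESeq2 1.42.0, RNAfold 2.7.2, and Python 3.11.15 with scipy 1.17.1, pandas 2.3.3, matplotlib 3.10.9 and numpy 2.4.6.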

Additional observations from a re-analysis of the deposited data

How the results depend on the processing

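The log2 ratio kept its sign in each alternative that could change it, from −0.86 to −0.79 for Mir451a and from −0.33 to −0.26 for Mir144. Those alternatives changed scaling, count minimum or, for Mir144, strand, while the fold minimum and the edgeR tests reused the main ratio. The sole change of call was Mir451a at −0.82 without the fold minimum. Mir144 had an adjusted p between 0.0486 (library totals, exact binomial test) and 1 (edgeR exact test, estimated spread). Genes called numbered 154 without the fold minimum and 7 with the estimated spread, against 33. On either-strand counts, Mir451a stood at 0 CPM, Mir144 at 128 CPM and their share at 0.0128%, because reads of Mir451a are ambiguous there, so no ratio of Mir451a, alone or to Mir144, could be computed. Over all reads listed, Mir451a averaged 101 CPM, Mir144 17.5 CPM and their share 0.0118%, and without the 10 most abundant genes in the denominator 1623 CPM, 286 CPM and 0.191%. With a single library, Mir451a ranged from 377 to 682 CPM, Mir144 from 83.3 to 105 CPM and their share from 0.0460% to 0.0787%. No paired analysis was possible because there is 1 group. With 2 libraries, the spread between libraries rests on a single difference per gene.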
